A study of Homo sapiens with 12 samples.

Results

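Expression of ZNF263 was compared with a control vector in PC9 and HCC827, and the response common to both lines was sought. It was taken as the mean of the 2 within-line differences, each ZNF263 minus control on the log2(FPKM + 1) scale, where FPKM is fragments scaled by gene length and library size. The comparison used 8 of the 12 libraries of the series and left out H1975, the third line. The 4 groups were PC9 with the control vector, PC9 with ZNF263, HCC827 with the control vector and HCC827 with ZNF263, with n = 2 libraries each. PC9 and HCC827 are established lines of human lung adenocarcinoma, a non-small-cell lung cancer. All groups, controls included, came from cells exposed to osimertinib, an EGFR kinase inhibitor, in steps and grown in DMEM. In the sample titles the line names end in OR, a suffix left unexplained there. The labels name neither the promoter of the vector nor whether a line is 1 clone. Nor do they say whether the libraries of a group stem from separate cultures. The p-values therefore reflect the spread between libraries alone, and that spread may be technical.

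ZNF263 is a transcription factor that binds purine-rich DNA through an array of zinc fingers and carries a KRAB domain, a module that in many proteins of this class recruits the TRIM28 co-repressor and silences nearby chromatin. PC9 and HCC827 carry activating deletions in EGFR, the receptor tyrosine kinase that feeds ERK and AKT signalling and that osimertinib blocks. A response seen in both lines has been measured on unlike genetic backgrounds, and neither line shares a control library with the other.

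Reads were recovered for the 16620 genes with values in all 8 libraries, AURKA apart, as the smallest numbers that matched the values. They summed to between 16211725 and 19337800 per library, which need not be all of its reads. The number of genes at 1 FPKM or more ranged from 10762 to 10997. Genes with values in all 8 libraries and at least 1 FPKM in 2 or more of them numbered 11793. Of 9 markers of lung adenocarcinoma cells, 9 reached 1 FPKM in the HCC827 controls and 4 in the PC9 controls (KRT7, KRT8, KRT18 and CDH1). EPCAM, the epithelial adhesion molecule, lay between 0.168 and 0.414 FPKM in the PC9 libraries, and KRT19 was listed at 0 in all of them but 1, where it stood at 0.262 FPKM. The summed level of the 9 markers went from 2786 to 2810 FPKM in the PC9 controls to 3960 to 4194 FPKM with ZNF263, and from 3693 to 4156 to 3342 to 3546 FPKM in HCC827. No endothelial marker reached 1 FPKM, of 10 with values in PC9 and 9 in HCC827. Among 12 immune markers only CD68 did so in PC9, and CD68 and CSF1R among the 11 with values in HCC827. CD3D was listed at 0 in both control groups. Of 10 fibroblast markers COL1A1 and ACTA2 reached 1 FPKM in PC9. In HCC827, with 9 measured, COL1A1, LUM and ACTA2 did so, and COL3A1 with ZNF263 only. Of neuroendocrine markers, 10 with values in PC9 and 5 in HCC827, only SYT1 reached it in each line. HCC827 lacked values for some genes that PC9 listed under older symbols, so levels set side by side across lines are a description. Every test of ZNF263 libraries used the controls of their own line. Fewer cells of a type and less RNA per cell cannot be told apart in such bulk samples.

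The promoters of 3 genes described below are shown for orientation, from 250 bases before to 50 bases after the start of the gene (RefSeq, GRCh38.p14). Those of MUC1, which rose in both lines, and EGFR, which fell in both, hold GGAGGAGG, a purine-rich word of the kind ZNF263 is known to bind. That of ASNS holds TGATGNAA, the element at which ATF4 and C/EBP factors bind as a pair. Capitals mark each match on either strand, and matches that overlap run together. The MUC1 promoter (chr1:155192866-155193165, minus strand) held 2 overlapping matches, the first starting at -129 from the start of the gene. The EGFR promoter (chr7:55018767-55019066, plus strand) held 5 matches, all on the other strand, from -106 onward. The ASNS promoter (chr7:97872359-97872658, minus strand) held 1 match at -68.
MUC1: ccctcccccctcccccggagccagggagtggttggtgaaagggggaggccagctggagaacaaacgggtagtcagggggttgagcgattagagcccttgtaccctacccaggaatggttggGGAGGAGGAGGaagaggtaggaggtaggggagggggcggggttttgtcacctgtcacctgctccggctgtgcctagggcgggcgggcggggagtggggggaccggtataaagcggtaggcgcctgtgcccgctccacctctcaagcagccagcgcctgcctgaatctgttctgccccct
EGFR: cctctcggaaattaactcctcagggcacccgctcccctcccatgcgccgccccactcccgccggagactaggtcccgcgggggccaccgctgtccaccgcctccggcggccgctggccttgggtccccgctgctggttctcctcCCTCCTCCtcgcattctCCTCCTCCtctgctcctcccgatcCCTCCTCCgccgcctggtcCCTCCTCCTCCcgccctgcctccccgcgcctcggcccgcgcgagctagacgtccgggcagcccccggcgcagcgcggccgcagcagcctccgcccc
ASNS: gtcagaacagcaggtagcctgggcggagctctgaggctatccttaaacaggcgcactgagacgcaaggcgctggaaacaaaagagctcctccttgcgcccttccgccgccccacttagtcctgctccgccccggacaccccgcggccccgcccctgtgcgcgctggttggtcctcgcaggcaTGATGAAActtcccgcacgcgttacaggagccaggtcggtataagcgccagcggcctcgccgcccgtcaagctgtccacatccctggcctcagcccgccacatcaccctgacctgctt
On either strand, GGAGGAGG was found in 10.4% of all 27305 promoters of this length and in 13.1% of those of tested genes, and TGATGNAA in 3.67% and 1.64%. A promoter was matched for 189 of the 244 genes that rose in both lines and 56 of the 79 that fell, under 80% of each group, so a comparison of motif shares between groups is void. A match is a description of the letters in this window and not a binding site.

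The libraries labelled ZNF263 held more ZNF263 transcript in both lines. The gene occupies positions 3263800 to 3301401 of the plus strand of chromosome 16 (GRCh38) and is protein-coding. In PC9 it read 9.55 and 9.11 FPKM in the controls and 39.3 and 39.0 with ZNF263, and in HCC827 13.2 and 11.8 against 19.6 and 19.8. No ZNF263 library overlapped a control library. The log2 change was 1.96 ± 0.070 (SE) in PC9 (limma adjusted p = 5.51e-08) and 0.62 ± 0.070 in HCC827 (0.000203). The increase was thus smaller in HCC827, by 1.34 on the log2 scale (the difference HCC827 minus PC9 was -1.34 ± 0.098, limma adjusted p = 2.19e-05).

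A gene was counted as shared when limma called it in each line at an adjusted p under 0.05 with the same sign. By this rule 244 genes were higher with ZNF263 in both lines (2.07% of those tested) and 79 were lower (0.67%), while 60 moved in opposite directions (0.509%). Both lines were fitted together with a spread shared by the 4 groups, so their calls are not fully independent. In that fit PC9 had 748 higher (6.34%) and 375 lower calls (3.18%), 9.52% in all. HCC827 had 1384 (11.7%) and 642 (5.44%), 17.2% in all. The 244 genes were 32.6% of the higher calls of PC9 and 17.6% of those of HCC827, and the 79 were 21.1% and 12.3% of the lower calls. Across all genes, which are not independent, the responses of the lines had a Pearson correlation of 0.23 and a Spearman correlation of 0.25, and 56.6% of genes had the same sign in both. Every shared gene had libraries that did not overlap in either line, but so did 14.1% of all genes in the higher and 7.84% in the lower direction.

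**Figure D1:**
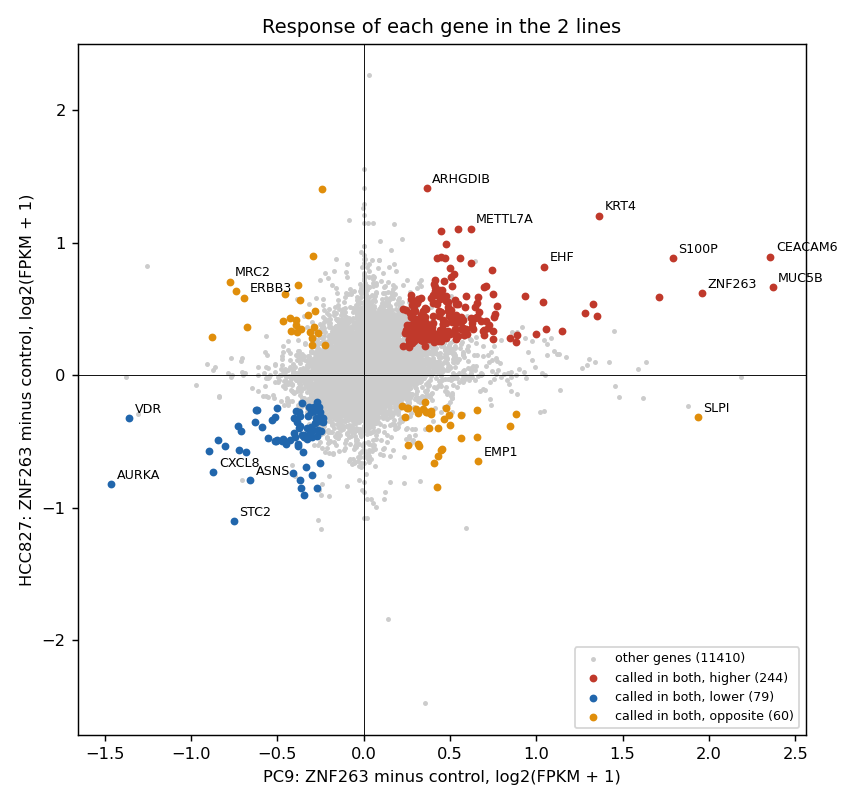
Change of each of the 11793 genes with ZNF263 in PC9 (horizontal axis) and HCC827 (vertical axis), both as log2(FPKM + 1), ZNF263 minus control. Red and blue points are the 244 and 79 genes called in both lines in the same direction, orange points the 60 called in opposite directions, and grey points all others; ZNF263, MUC5B and CEACAM6 lie far to the right, with a larger change in PC9.

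The mean of the lines passed in more genes, 1599 higher (13.6%) and 750 lower (6.36%), together 19.9% of those tested, yet most of these did not pass in each line. Of the 1599, 244 were called in both lines, 384 only in PC9, 720 only in HCC827 and 251 in neither. Of the 750, the numbers were 79, 164, 336 and 171. The counts of shared genes also moved when single libraries were left out. Leaving out any 1 of the 4 PC9 libraries gave between 101 and 123 shared higher and between 23 and 39 shared lower genes. Without HCC827 ZNF263 replicate 1 there were 99 and 41, without HCC827 ZNF263 replicate 2 148 and 57, and without HCC827 control replicate 2 286 and 126. The PC9 calls numbered between 327 and 414 higher and between 105 and 172 lower without 1 of its libraries. The HCC827 calls numbered 492 and 248 without its ZNF263 replicate 1 and 879 and 389 without replicate 2. The share of higher calls in HCC827 was 68.31% as deposited, 51.12% after median-of-ratios scaling and 51.51% after quantile normalization. For the mean of the lines it was 68.07%, 56.46% and 53.71%, and for shared genes 75.54%, 69.97% and 64.89%. A core of 36 higher and 9 lower genes was called in both lines under all 17 alternatives, 8 of which leave out 1 library and 1 of which keeps only genes with at least 5 FPKM in 2 libraries.

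Shared changes were small for most genes. Among the 244 higher genes the median change was 0.42 in PC9 and 0.39 in HCC827, and 75 of them had a group mean under 1 FPKM in 1 line or both. Among the 79 lower genes the medians were -0.37 and -0.42, against -0.00074 and 0.045 for all genes tested. The lower genes were the more abundant, with a median control level of 23.5 FPKM in PC9 and 22.3 in HCC827, against 4.19 and 6.46 FPKM for the higher genes and 8.002 and 8.62 for all genes. A change of at least 0.5 in each line was reached by 30 higher (0.254%) and 8 lower genes (0.0678%).

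KRT4, EHF, AGR2 and TSPAN8, which are known from mucosal epithelium, were higher with ZNF263 in both lines. KRT4, a keratin of stratified mucosa, read 1.42 and 1.35 FPKM in the PC9 controls and 5.53 and 4.75 with ZNF263, and 20.6 and 16.9 against 43.7 and 44.6 in HCC827. It rose by 1.36 ± 0.095 (SE) in PC9 (limma adjusted p = 5.13e-06) and 1.20 ± 0.095 in HCC827 (2.22e-05), the most of all shared genes when ranked by the smaller of the 2 changes. EHF, an ETS-family transcription factor of epithelial cells, went from 8.06 and 7.55 to 17.0 and 17.4 FPKM in PC9 and from 1.25 and 1.43 to 3.12 and 3.14 in HCC827. Its changes were 1.05 ± 0.077 (7.09e-06) and 0.82 ± 0.077 (5.57e-05), with control and ZNF263 libraries far apart in both lines. AGR2, a disulfide isomerase needed for mucin folding, rose from 77.7 and 81.3 to 116 and 129 FPKM in PC9 and from 7.64 and 7.39 to 14.7 and 13.9 in HCC827. TSPAN8, a tetraspanin, rose by 0.75 and 0.61.

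Mucins MUC5B and MUC1, the adhesion molecule CEACAM6 and the secreted protein S100P were also higher in both lines. MUC5B, a gel-forming airway mucin, stood at 2.21 and 2.50 FPKM in the PC9 controls and 16.4 and 16.2 with ZNF263, a rise of 2.37 ± 0.096 (SE; limma adjusted p = 9.05e-08). In HCC827 it was scarce, at 0.201 and 0.233 FPKM against 1.122 and 0.752, and rose by 0.66 ± 0.096 (0.000921). CEACAM6 stood at 0.604 and 0.556 FPKM in the PC9 controls and 88.4 and 109 in those of HCC827. It reached 6.75 and 7.44 FPKM in PC9 and 194 and 174 in HCC827, rises of 2.36 and 0.89. MUC1, the transmembrane mucin whose promoter is shown above, went from 0.801 and 0.472 to 1.70 and 1.62 FPKM in PC9 and from 4.26 and 4.36 to 7.18 and 7.80 in HCC827. Its changes were 0.71 ± 0.097 and 0.68 ± 0.097, and its call in PC9 was lost when each line was fitted on its own (limma adjusted p = 0.0553). S100P, a secreted calcium-binding protein, rose by 1.79 in PC9 and 0.88 in HCC827.

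Among 20 measured genes of the lung secretory and alveolar list, 4 were called higher in both lines, against 2.07% of all genes tested. They were CEACAM6, MUC5B, MUC1 and FOXA1, a pioneer factor of endoderm. No member was lower in both, and SLPI, an inhibitor of leukocyte proteases, was called higher in PC9 and lower in HCC827. The HCC827 call of SLPI was lost without any 1 of 5 libraries (limma adjusted p up to 0.268). Other members moved in 1 line. The surfactant genes SFTPB, SFTPA1 and SFTA2 and the surface protein CEACAM5 rose in HCC827, by 1.56, 1.41, 0.55 and 1.21, and had a change of 0 in PC9, so they passed the filter only through HCC827. LCN2 and MUC5AC rose in PC9, by 1.62 and 1.64, and stood at -0.18 and 0.096 in HCC827. SFTPA1 has a near-identical copy, SFTPA2, so the reads of both are uncertain. The call of FOXA1 in PC9 was lost without any 1 of the 4 PC9 libraries (limma adjusted p up to 0.203) and its call in HCC827 without HCC827 ZNF263 replicate 1 (0.0939).

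**Figure D2:**
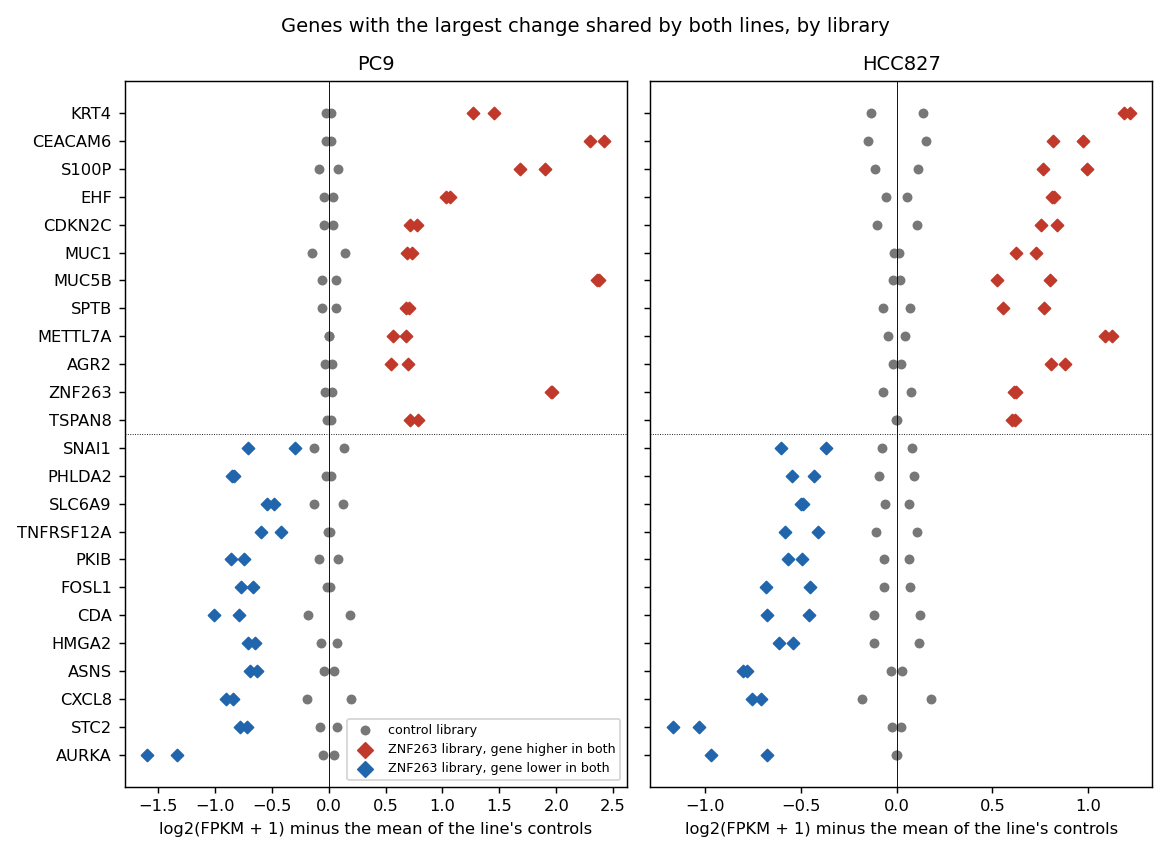
The 12 genes with the largest shared rise and the 12 with the largest shared fall, with each library as a point: log2(FPKM + 1) minus the mean of that line's 2 controls, PC9 on the left and HCC827 on the right. Grey circles are control libraries and diamonds ZNF263 libraries (red for genes higher in both lines, blue for lower); no diamond overlaps its controls, and the change is largest for MUC5B and CEACAM6 in PC9 and for KRT4 in HCC827.

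CDKN2C, the CDK inhibitor p18, was higher in both lines. CDKN2C went from 11.6 and 10.9 to 19.96 and 19.1 FPKM in PC9 and from 8.65 and 7.35 to 14.1 and 15.0 in HCC827. The changes were 0.74 ± 0.082 (SE; limma adjusted p = 0.000142) and 0.80 ± 0.082 (0.000119), with no overlap between groups. Of 26 measured genes of DNA replication, only MCM6, a helicase subunit, was called higher in both lines, by 0.24 and 0.32, and its PC9 call was lost without any 1 of the PC9 libraries (limma adjusted p up to 0.191). Of 25 mitosis genes, AURKA alone was shared. Of all genes tested, 2.07% were higher and 0.67% lower in both lines, so 1 gene in lists of this size says nothing of either list. No ribosomal protein of 26 and no oxidative phosphorylation gene of 26 was called in either line. For the mean of the lines 3 of the oxidative phosphorylation genes were lower and 0 higher, against 6.36% and 13.6% of all genes tested. No ribosomal protein was called for the mean.

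Other genes with large shared rises had varied roles. METTL7A, a membrane-bound methyltransferase, rose by 0.62 ± 0.078 (SE) in PC9 (limma adjusted p = 0.000403) and 1.11 ± 0.078 in HCC827 (1.45e-05), and SPTB, the erythroid beta-spectrin, by 0.69 and 0.66. ABCC3, an efflux transporter and the 1 shared member of 21 NRF2 targets, went from 73.0 and 73.6 to 97.5 and 95.3 FPKM in PC9 and from 46.0 and 42.7 to 56.8 and 57.6 in HCC827. CTSH, a lysosomal cysteine protease, rose by 0.43 and 0.60 and was the 1 shared gene of 27 lysosome and autophagy members. Its PC9 call was lost without PC9 control replicate 2 (limma adjusted p = 0.165) and without PC9 ZNF263 replicate 1 (0.154).

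AURKA, which encodes the mitotic kinase Aurora A, had the largest shared fall. Its level went from 31.1 and 33.4 to 10.02 and 12.2 FPKM in PC9 and from 43.3 and 43.5 to 21.7 and 26.8 in HCC827. It fell by 1.46 ± 0.102 (SE) in PC9 (limma adjusted p = 5.13e-06) and by 0.82 ± 0.102 in HCC827 (0.000378). In a first search 99.5% of genes above 0 in PC9 and 99.6% in HCC827 came out as whole reads, and AURKA was the 1 gene in each line that did not do so in a wider search with a looser tolerance either. Scaled by the worth of a read in H1975, its HCC827 controls stood at 2289 and 2194 whole reads, while its ZNF263 libraries stood at 1118.73 and 1384.43. Of 11384 other genes treated in the same way, 98.3% came out whole, or whole after doubling, in all 4 HCC827 libraries (within 0.01 of a read). How these values arose was not tested, and the fall of AURKA rests on them.

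Genes of amino acid supply under ATF4, the transcription factor of the integrated stress response, were lower in both lines for 7 of 28 measured members. None was higher in both, and the mean of the lines was lower for 22 (median -0.32). Of all genes tested, 0.67% were lower in both lines and 6.36% were lower for the mean. ASNS, asparagine synthetase, went from 28.3 and 30.1 to 18.6 and 17.7 FPKM in PC9 and from 36.5 and 35.1 to 20.4 and 20.1 in HCC827. It fell by 0.66 ± 0.064 (SE; limma adjusted p = 5.69e-05) and by 0.79 ± 0.064 (2.40e-05), and the size of the fall was not called to differ between lines (HCC827 minus PC9, -0.13 ± 0.090, adjusted p = 0.408). STC2, a secreted glycoprotein induced by stress, went from 10.1 and 11.3 to 6.07 and 5.78 FPKM in PC9 and from 86.1 and 83.1 to 37.1 and 40.8 in HCC827. It fell by 0.75 and by 1.10. Every control library lay above every ZNF263 library for both genes in each line.

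The other shared members of the ATF4 list were PSAT1, an enzyme of serine synthesis, DDIT3, the stress factor CHOP, SLC7A5, a leucine transporter, DDIT4, an inhibitor of mTORC1, and XPOT, the tRNA exporter. PSAT1 read 66.4 and 75.3 FPKM in the PC9 controls against 50.6 and 55.4, and 76.0 and 84.6 against 45.3 and 50.4 in HCC827. DDIT3 fell by 0.43 and by 0.49. SLC7A5 fell by 0.30 in PC9 and by 0.76 in HCC827, and DDIT4 fell by 0.27 and by 0.85. These 4 genes and XPOT lost their PC9 call without some single libraries. PSAT1 lost it without PC9 control replicate 2 or PC9 ZNF263 replicate 1 (limma adjusted p up to 0.136), and DDIT3 without PC9 control replicate 1 or PC9 ZNF263 replicate 1 (up to 0.081). SLC7A5 lost it without any PC9 library (up to 0.19), DDIT4 without any PC9 or HCC827 ZNF263 library (up to 0.253), and XPOT without either PC9 control or PC9 ZNF263 replicate 1 (up to 0.209). The shared count of the list lay between 2 and 5 without 1 of the PC9 libraries, at 5 and 6 without HCC827 ZNF263 replicates 1 and 2, and at 11 and 12 without HCC827 control replicates 1 and 2. ASNS and STC2 were called in both lines in each of these fits. The calls of the list were uneven, with 9 lower in PC9 and 22 in HCC827, against 3.18% and 5.44% of all genes tested. SLC6A9, a glycine transporter outside that list, fell by 0.51 and by 0.49 on the log2 scale, with its PC9 call lost without PC9 control replicate 1 (0.062) or PC9 ZNF263 replicate 1 (0.0516).

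**Figure D3:**
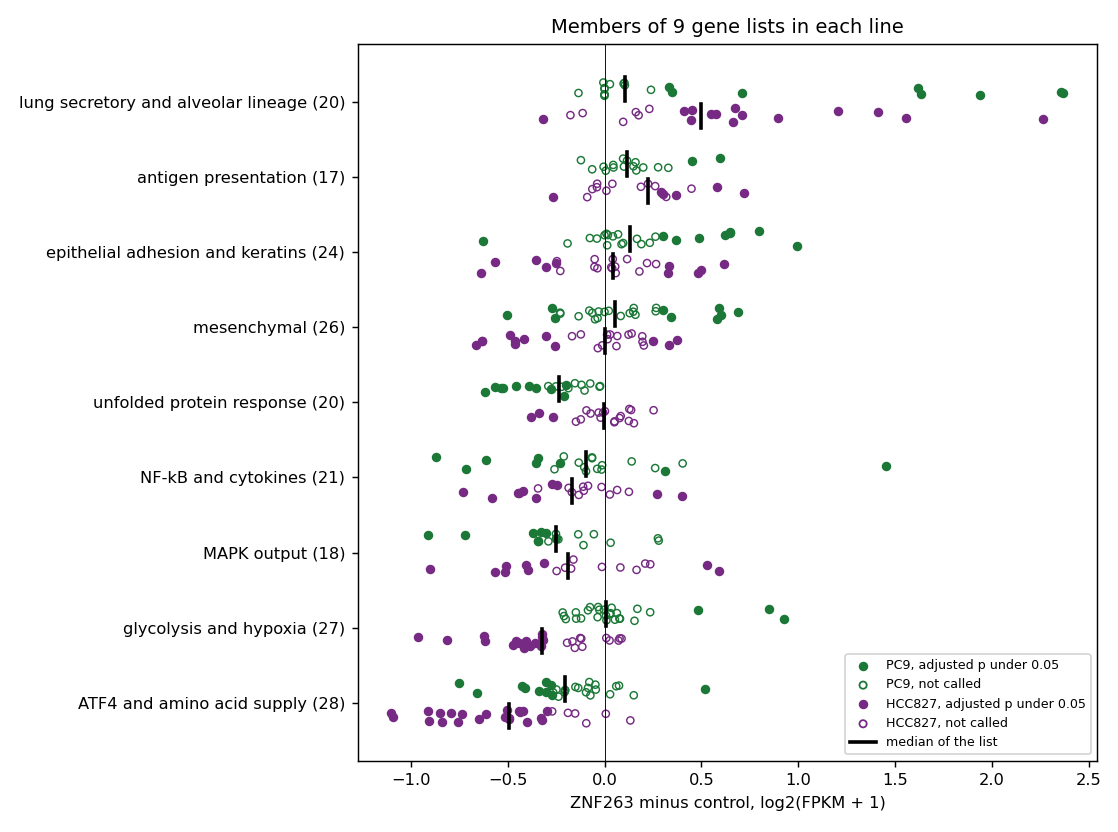
Change of each measured member of 9 gene lists in PC9 (green) and HCC827 (purple), as log2(FPKM + 1), ZNF263 minus control; filled points passed the limma test in that line, open points did not, and black bars are list medians. The ATF4 list lies to the left in both lines (medians -0.20 and -0.49), the unfolded protein response mainly in PC9 (-0.24 against -0.0024), and glycolysis and hypoxia in HCC827 (0.0099 against -0.32).

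The unfolded protein response, the stress pathway of the secretory compartment, held 2 shared genes. Of its 20 measured genes, HSPA5, the main chaperone of the endoplasmic reticulum, and SDF2L1, its cofactor, were lower in both lines. In the list 10 were called lower in PC9 and 3 in HCC827. Of all genes tested, 0.67% were lower in both lines, 3.18% in PC9 and 5.44% in HCC827. HSPA5 went from 222 and 229 to 139 and 155 FPKM in PC9 and from 172 and 173 to 142 and 144 in HCC827. It fell by 0.62 and by 0.27, and the fall was smaller in HCC827 by 0.35 ± 0.091 (SE; limma adjusted p = 0.0365). Without HCC827 ZNF263 replicate 1 or 2 neither gene was called in HCC827 (limma adjusted p between 0.0697 and 0.143), and SDF2L1 was also lost without control replicate 1 of PC9 (0.0504) or HCC827 (0.145). That test of the difference for HSPA5 was lost in 6 of the 8 fits without 1 library (adjusted p up to 0.173). In the glycolysis and hypoxia list 16 of 27 members were lower in HCC827, against 5.44% of all genes. None was lower in PC9, and none was shared. SLC16A3, a lactate transporter, rose in PC9 and fell in HCC827.

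Genes that ERK signalling induces fell in both lines for 4 of 18 measured members, against 0.67% of all genes tested. No member was higher in both, against 2.07% of all genes. FOSL1, an AP-1 subunit, went from 11.1 and 10.9 to 6.05 and 6.57 FPKM in PC9 and from 124 and 113 to 73.6 and 86.3 in HCC827. It fell by 0.72 ± 0.083 (SE; limma adjusted p = 0.000194) and by 0.57 ± 0.083 (0.000947). CCND1, cyclin D1, read 94.0 and 91.5 FPKM against 75.7 and 74.3 in PC9 and 249.8 and 246 against 183 and 193 in HCC827. DUSP5, an ERK phosphatase, fell by 0.34 and by 0.90, and ETV5, an ETS factor, by 0.25 and by 0.31. All 3 lost their PC9 call without either PC9 control library, with limma adjusted p up to 0.0817 for CCND1, 0.172 for DUSP5 and 0.299 for ETV5. The call was also lost for CCND1 without PC9 ZNF263 replicate 2 and for DUSP5 without replicate 1. ETV5 lost it without any ZNF263 library, and its HCC827 call without HCC827 ZNF263 replicate 2 (0.074). With 1 library left out, the shared count was 1 without PC9 control replicate 1 or 2, 2 without either PC9 ZNF263 library, and 6 without HCC827 control replicate 1. FOSL1 was called in both lines in each fit. Of its feedback inhibitors, SPRY1 rose by 0.59 in HCC827 and stood at 0.031 in PC9, while DUSP6 fell by 0.34 in PC9 and stood at 0.24 in HCC827 (limma adjusted p = 0.0525).

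EGFR, at chromosome 7, 55019021 to 55211628 (GRCh38, plus strand), read 42.1 and 42.9 FPKM in the PC9 controls and 28.8 and 30.0 with ZNF263, and 442 and 469.5 against 361 and 369 in HCC827. The groups did not overlap in either line. The mean of both lines fell by 0.42 ± 0.042 (SE; limma adjusted p = 6.57e-05), and the HCC827 minus PC9 difference of 0.20 ± 0.083 was not called (0.176). Fitted on its 4 libraries alone, HCC827 did not pass (limma adjusted p = 0.0615). Its partner ERBB2 moved the other way, from 17.7 and 17.4 to 22.9 and 21.7 FPKM in PC9 and from 22.8 and 22.6 to 30.5 and 28.7 in HCC827. Those rises were 0.33 and 0.37, and the PC9 call was lost without either PC9 control or PC9 ZNF263 replicate 1 (limma adjusted p up to 0.0904). EREG, the ligand epiregulin, fell by 0.73 and by 0.39, with its HCC827 call lost without HCC827 control replicate 2 (0.0912) or ZNF263 replicate 1 (0.23). ERBB3, the partner without a fully active kinase, fell in PC9 from 4.41 and 4.10 to 2.32 and 2.19 FPKM and rose in HCC827 from 13.4 and 14.8 to 23.0 and 20.3. Thus 3 of the 13 measured ERBB receptors, ligands and regulators were shared, 1 higher and 2 lower, and 1 was opposite. Of all genes tested, 2.07% were higher and 0.67% lower in both lines, and 0.509% were opposite.

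**Figure D4:**
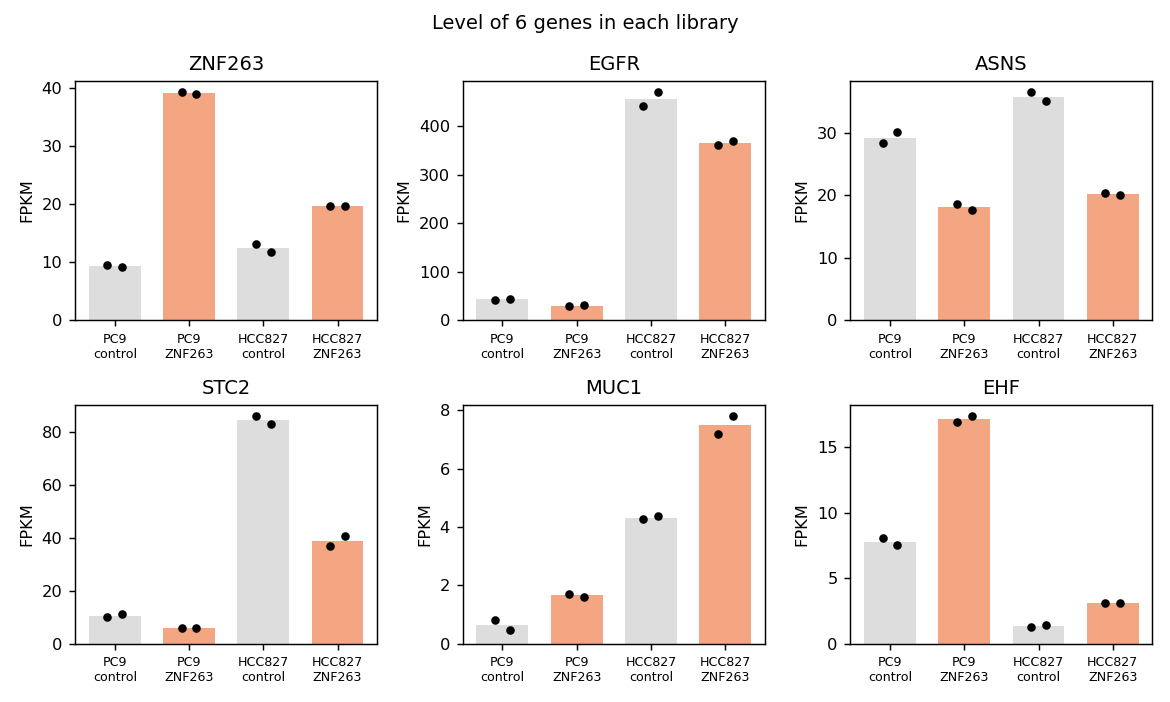
Level of 6 genes in each library, in FPKM on a linear axis from 0; bars are the means of 2 libraries and points the single libraries, grey for control and orange for ZNF263. ZNF263, MUC1 and EHF are higher and EGFR, ASNS and STC2 lower with ZNF263 in both lines, with no overlap of points within a line.

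Inflammatory mediators were mostly lower where shared. CXCL8, the neutrophil chemokine, read 4.38 and 3.11 FPKM in the PC9 controls against 1.51 and 1.63, and 15.4 and 20.05 against 9.99 and 10.4 in HCC827. It fell by 0.87 ± 0.131 (SE; limma adjusted p = 0.00144) and by 0.73 ± 0.131 (0.00317). LIF, a cytokine of the interleukin-6 family, fell by 0.34 and by 0.45, NFKB2, a subunit of the non-canonical pathway, by 0.71 and by 0.42, and TNFAIP3, an inhibitor of NF-kB signalling, by 0.35 and by 0.58. NFKBIZ, an atypical NF-kB inhibitor, rose by 0.31 and 0.40. Of 21 members in all, 4 were lower and 1 was higher in both lines, against 0.67% and 2.07% of all genes tested. Most of these calls were lost when some single libraries were left out. LIF was not called in PC9 without PC9 control replicate 2 (limma adjusted p = 0.0512), and NFKB2 was not called in HCC827 without either of its ZNF263 libraries (up to 0.0544). TNFAIP3 was not called in PC9 without any 1 of its libraries (up to 0.216). NFKBIZ lost its PC9 call without either PC9 or HCC827 ZNF263 library or PC9 control replicate 2 (up to 0.374), and its HCC827 call without HCC827 control replicate 1 or ZNF263 replicate 1 (up to 0.0876). CXCL8 kept its call in each of these fits but not without the filter on low values (limma adjusted p = 0.051 in PC9 and 0.0552 in HCC827). With each line fitted on its own, the PC9 calls of CXCL8 (0.0623), NFKB2 (0.0529) and NFKBIZ (0.152) were also lost.

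Among structural and plasticity genes, HMGA2 and CLDN1 gave shared falls that held in every alternative. HMGA2, an architectural chromatin protein of embryonic and tumour cells, went from 17.8 and 19.6 to 10.997 and 11.6 FPKM in PC9 and from 34.4 and 40.7 to 25.4 and 24.1 in HCC827. It fell by 0.68 ± 0.085 (SE; limma adjusted p = 0.000375) and by 0.58 ± 0.085 (0.00101). CLDN1, a tight junction protein, fell by 0.63 and by 0.35, whereas DSP, the desmosomal plaque protein, rose by 0.49 and 0.34, with its HCC827 call lost without HCC827 ZNF263 replicate 1 (limma adjusted p = 0.106). These 2 were the shared members of 24 epithelial adhesion and keratin genes. Of all genes tested, 0.67% were lower and 2.07% higher in both lines. CDH1, E-cadherin, rose by 0.99 in PC9 and stood at 0.058 in HCC827, while KRT7 fell by 0.64 in HCC827 and stood at 0.044 in PC9.

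Of 26 mesenchymal genes 3 were lower and 1 was higher in both lines, against 0.67% and 2.07% of all genes tested. FN1, fibronectin, read 127 and 122 FPKM in the PC9 controls against 199 and 204, and 318 and 335 against 428 and 395 in HCC827, rises of 0.69 and 0.33. SNAI1, a repressor of E-cadherin, fell by 0.51 and by 0.49, and ITGA5, an integrin chain, by 0.27 and by 0.46. Neither call held in every fit with 1 library left out, although the PC9 change of ITGA5 stayed between -0.2622 and -0.2835 without 1 PC9 library. The PC9 call of ITGA5 was lost without any 1 PC9 library and without either HCC827 ZNF263 library, with limma adjusted p up to 0.204. SNAI1 lost its call in 1 line or both without every library but PC9 ZNF263 replicate 1 (up to 0.294). FN1 lost its HCC827 call without HCC827 ZNF263 replicate 1 (0.0693). At most 2 of the list were lower in both lines in any fit with 1 library left out, and none in the fits without PC9 control replicate 1 or 2, PC9 ZNF263 replicate 2, or either HCC827 ZNF263 library.

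Further shared falls with large changes were those of PHLDA2, an imprinted growth regulator, PKIB, an inhibitor of protein kinase A, CDA, cytidine deaminase, and TNFRSF12A, the TWEAK receptor. PHLDA2 went from 20.2 and 20.9 to 11.1 and 10.97 FPKM in PC9 and from 50.5 and 44.3 to 32.1 and 34.9 in HCC827. It fell by 0.84 ± 0.075 (SE; limma adjusted p = 3.13e-05) and by 0.49 ± 0.075 (0.00135). PKIB fell by 0.80 and by 0.53, CDA by 0.90 and by 0.57, and TNFRSF12A by 0.51 and by 0.50. The HCC827 call of CDA was lost without HCC827 control replicate 1 (limma adjusted p = 0.0967) or ZNF263 replicate 1 (0.132). Of 17 measured YAP/TEAD targets only FJX1 was shared, which fell by 0.38 and by 0.52 on the log2 scale, and its PC9 call was lost without any 1 PC9 library (up to 0.0955).

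Some lists gave no shared member. No gene was called in both lines in the same direction among 22 p53 targets, 19 apoptosis regulators, 24 genes of cholesterol and fatty acid synthesis, 23 interferon response genes, 17 KRAB co-repressor and DNA methylation genes or 17 antigen presentation genes. For antigen presentation the mean of the lines was higher for 7 and lower for 0 of 17, against 13.6% and 6.36% of all genes tested. HLA-B, a class I heavy chain, stood at 0.33 in PC9 (limma adjusted p = 0.0639) and rose by 0.72 in HCC827, while HLA-C rose by 0.45 in PC9 and stood at 0.26 in HCC827 (0.0764). Class I heavy chains are close copies of each other, and their reads may be divided uncertainly.

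The size of a shared change was not called to differ between the lines for 219 of the 244 higher and 70 of the 79 lower genes, against 8.03% of all genes called to differ. A difference that was not called does not show that the lines responded alike. Of the 25 higher genes that differed, 16 rose more in PC9 and 9 in HCC827, and of the 9 lower genes 4 fell more in PC9 and 5 in HCC827. MUC5B, CEACAM6 and LYPD1, a GPI-anchored modulator of nicotinic receptors, rose more in PC9, with HCC827 minus PC9 differences of -1.71 ± 0.136 (SE; limma adjusted p = 3.69e-05), -1.46 ± 0.136 and -1.12 ± 0.137. VDR, the vitamin D receptor, fell from 2.54 and 2.70 to 0.394 and 0.432 FPKM in PC9 and from 9.90 and 9.11 to 7.51 and 7.24 in HCC827, a difference of 1.03 ± 0.109 (0.000216). Its HCC827 call was lost without HCC827 control replicate 1 or either HCC827 ZNF263 library (up to 0.0811). ARHGDIB, an inhibitor of small GTPase cycling, rose more in HCC827, from 39.6 and 40.1 to 106 and 109.6 FPKM, than in PC9, where it read 0.0543 and 0.0774 against 0.323 and 0.426. Its PC9 call was lost without either PC9 control or PC9 ZNF263 replicate 2 (up to 0.0761), and with a pseudocount of 0.1 the difference between lines turned sign, from 1.04 to -0.081 (adjusted p = 0.833).

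Among the 60 genes called in both lines with opposite signs, some had a mean near 0 and others did not. SLPI had a mean of 0.81 (limma adjusted p = 1.97e-05). SLC16A3, a lactate transporter, had a mean of 0.23 (0.014), which did not pass without PC9 control replicate 1, PC9 ZNF263 replicate 1 or HCC827 ZNF263 replicate 1 (limma adjusted p up to 0.053). MRC2, a collagen-uptake receptor, fell in PC9 from 20.6 and 20.7 to 11.7 and 11.5 FPKM and rose in HCC827 from 6.71 and 5.98 to 11.7 and 10.3. Its mean over the lines was -0.036 ± 0.057 (SE; limma adjusted p = 0.709), with changes of -0.78 and 0.71. EMP1, an epithelial membrane protein, rose by 0.66 in PC9 and fell by 0.65 in HCC827. BMP4, a bone morphogenetic protein, rose by 0.66 and fell by 0.47, HKDC1, a hexokinase-like enzyme, rose by 0.57 and fell by 0.47, and CEMIP, a hyaluronan-binding protein, fell by 0.74 in PC9 and rose by 0.64 in HCC827. These genes and ERBB3 kept both calls in every fit with 1 library left out. CEMIP lost both without the filter on low values (limma adjusted p = 0.0547 in PC9 and 0.0555 in HCC827).

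H1975 served as a line outside the comparison. Of the 243 shared higher genes with a value there, 111 were called higher, 65 lower and 67 in neither direction, where 32.2% of all genes were called higher and 32.1% lower in H1975, together 64.3%. Their median change was 0.12 against 0.0037 for all genes. Of the 79 shared lower genes 47 were also called lower, 16 higher and 16 in neither direction, with a median of -0.35. The H1975 response differed by limma from the mean of the other lines for 188 of the 243 and 61 of the 79 genes. Among all genes the share was 58.5%. The percentages of all genes here are of the 12218 genes in the fit of 12 libraries. Shared genes were chosen for their changes in the lines whose mean is subtracted, so their counts cannot be weighed against that share. CDKN2C rose there by 1.26 (adjusted p = 9.15e-09), and FOSL1, HMGA2 and PKIB changed by -1.54, -2.015 and -2.74. ASNS stood at 0.18, a rise that passed the test (0.0115), and CXCL8 rose by 1.56.

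Shared higher genes that differed most from H1975 were TP63, EHF, ITGB4, CTSH, TC2N and S100P. TP63, the transcription factor of basal epithelium, went from 10.8 and 9.98 to 14.5 and 15.6 FPKM in PC9 and from 1.95 and 1.72 to 3.60 and 2.56 in HCC827, rises of 0.49 and 0.51. It fell by 2.70 in H1975, and the difference from the mean of the other lines was -3.20 (limma adjusted p = 1.06e-09). EHF fell by 2.13 in H1975 and ITGB4, the hemidesmosomal integrin chain, fell by 2.27. ITGB4 had risen by 1.06 in PC9 and 0.35 in HCC827. TP63 lost its PC9 call without any 1 PC9 library (limma adjusted p up to 0.145) and its HCC827 call without HCC827 ZNF263 replicate 1 (0.0993). ITGB4 and TC2N lost their HCC827 calls without either HCC827 ZNF263 library (up to 0.108 and 0.119), and also without HCC827 control replicate 2 for ITGB4 and replicate 1 for TC2N. With all libraries kept, the HCC827 call of ITGB4 was also lost under quantile normalization (limma adjusted p = 0.0686). It was lost too without the filter on low values (0.074) and with each line fitted on its own (0.104). In these last fits TC2N (0.0944 and 0.0718) and TP63 (0.074 and 0.0584) lost their HCC827 calls as well. EHF and S100P were called in both lines in all 17 alternatives.

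**Figure D5:**
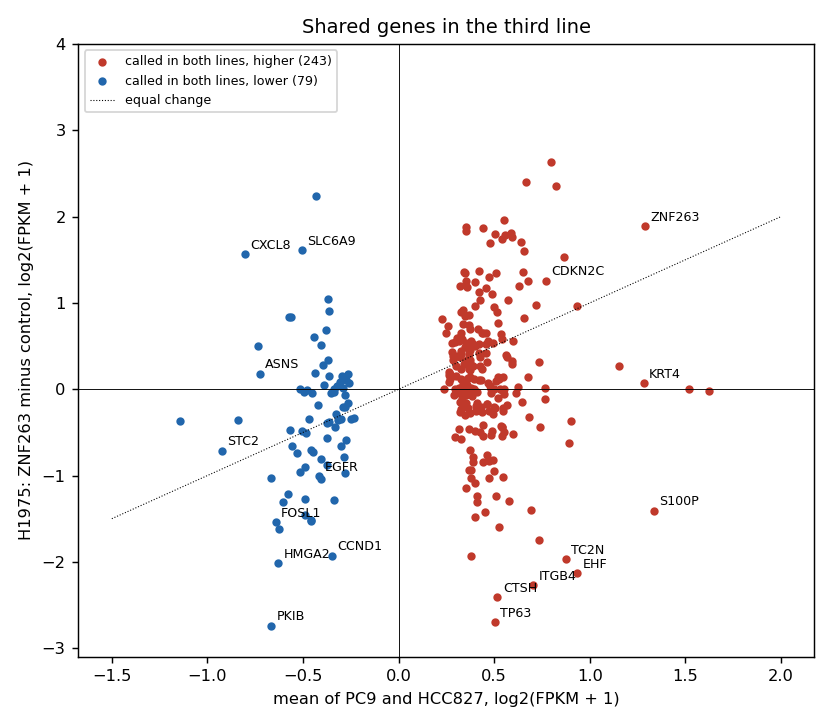
Shared genes in H1975: the mean change of PC9 and HCC827 (horizontal axis) against the change in H1975 (vertical axis), both log2(FPKM + 1), ZNF263 minus control, with 243 higher (red) and 79 lower genes (blue) and a dotted line of equal change. CDKN2C lies above that line, EHF, TP63 and S100P lie below 0 in H1975, and CXCL8 and SLC6A9 lie above 0 although lower in the other lines.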

How the data were processed

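RNA was measured in 8 libraries of PC9 and HCC827, grouped by the line and genotype labels. The authors deposited expression as FPKM, on GRCh38.p13 per the submitters' processing notes. Aligner, counter, annotation and strandedness were not given in the sources used here. Left out were 27 entries with names turned into dates, which left 20003 genes. HCC827 lacked values for 3383 of them, including 337 with expression in PC9, of which 294 carried older symbols. All 18 aminoacyl-tRNA synthetases were among these and could not be compared. Reads were recovered as whole multiples of the worth of 1 read, for 99.5% of genes in PC9 (99.54) and 99.6% in HCC827, against 0.1% and 0.15% of shuffled values. Libraries of a group differed beyond sampling, with a mean chi-square between 2.21 and 8.83 where sampling gives about 1, and each was counted as a sample.

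Values were taken as log2(FPKM + 1), which understates changes of low genes. After the filter of 1 FPKM in 2 libraries, limma 3.58.1 in R 4.3.3 was fitted with 1 mean per group and a trended prior variance. Tests were two-sided, with Benjamini-Hochberg adjustment over all genes tested. Every adjusted p is from limma in this fit unless another is named. H1975 was compared in the same model on 12 libraries. The code was tested on simulated data.

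Genes are named by rule: ZNF263, EGFR and AURKA; the 12 largest shared rises and falls by the smaller change of both lines; up to 4 shared members of each list; up to 6 with opposite signs; and up to 6 each that differ most between the lines or from H1975. The members and the gene lists were chosen with earlier results of these data known, and the lists are described by counts and medians without a test. Other members of a list are named as examples after their values were seen. Alternatives covered the pseudocount, the filter, scaling, the shared spread, the trend, a block on replicate numbers and each library left out. Gene coordinates are from GENCODE 29. Some genes that the rule names are not reported here.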

Additional observations from a re-analysis of the deposited data

Results flagged for a closer look

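The genes given first had a ZNF263 response that differed between HCC827 and PC9 by the limma test of the difference itself. Values are HCC827 minus PC9 on the log2(FPKM + 1) scale. Among genes higher in both lines, the rise was larger in HCC827 by 1.045 for ARHGDIB, 0.4868 for METTL7A and 0.4455 for COL6A2. It was smaller in HCC827, with differences of -1.463 for CEACAM6, -0.3592 for FN1, -0.7071 for ITGB4, -1.121 for LYPD1, -1.706 for MUC5B, -0.9114 for S100P, -0.8157 for TC2N and -1.341 for ZNF263.

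Among genes lower in both lines, the fall was smaller in HCC827, with differences of 0.6383 for AURKA, 0.3517 for HSPA5 and 1.032 for VDR. It was larger in HCC827, with -0.5787 for DDIT4, -0.5582 for DUSP5, -0.485 for PLAUR and -0.4544 for SLC7A5.

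Of genes with opposite signs, those that fell in PC9 and rose in HCC827 had differences of 1.484 for MRC2, 1.377 for CEMIP and 1.275 for ERBB3. Those that rose in PC9 and fell in HCC827 had -0.4552 for AJUBA, -0.6862 for AMOTL2, -1.127 for BMP4, -0.5995 for CDH2, -0.5526 for CGN, -1.31 for EMP1, -1.041 for HKDC1, -1.066 for IFI44L, -0.5065 for PTPN14, -1.234 for SLC16A3 and -2.252 for SLPI. KRT19, listed at 0 in all but 1 of the PC9 libraries, had -0.7346. Without at least 1 single library the differences of AJUBA, AURKA, CGN, COL6A2, DUSP5, FN1, HSPA5, KRT19, METTL7A, PLAUR, PTPN14 and SLC7A5 did not pass, with adjusted p up to 0.173. With a pseudocount of 0.1 the differences of ARHGDIB (-0.08106, limma adjusted p = 0.833), COL6A2 (0.1765, 0.602), METTL7A (0.2536, 0.397), KRT19 (-1.495, 0.176) and PLAUR (-0.481, 0.0769) did not pass. With it, the differences of CEACAM6, CEMIP, MUC5B and VDR passed at -2.503, 2.386, -1.057 and 2.048. Without the filter on low values, those of S100P (limma adjusted p = 0.068), TC2N (0.0852), ITGB4 (0.0512), DDIT4 (0.061) and AURKA (0.124) did not pass. Nor did those of COL6A2, DUSP5, FN1, HSPA5, KRT19, METTL7A, PLAUR and SLC7A5. Of the genes with opposite signs, AJUBA, AMOTL2, CDH2, CGN and PTPN14 lost the call in each line without at least 1 single library (limma adjusted p up to 0.276). So did SLPI and SLC16A3 in HCC827 and IFI44L in PC9. The opposite calls of these genes thus did not hold in every such fit, although no sign turned when 1 library was left out. A lost call need not mean a changed size. PTPN14 lost its PC9 call without either HCC827 ZNF263 library, where its PC9 change stayed at 0.2586.

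The response in H1975 differed from the mean of the other lines, by the same test, by -2.924 for CTSH, -3.065 for EHF, -2.971 for ITGB4, -2.742 for S100P, -2.846 for TC2N and -3.199 for TP63. These genes rose in both PC9 and HCC827 and fell in H1975.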

How the results depend on the processing

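The counts of called genes kept within 1.5 times of the reported values with a pseudocount of 0.1, a filter of 5 FPKM, median-of-ratios scaling, quantile normalization, a prior without trend and a spread shared by all 6 groups. Without a filter on low values, 176 genes were shared in direction (134 higher and 42 lower), 30 were opposite and 604 differed between the lines. With each line fitted on its own, PC9 had 648 calls and HCC827 819, with 106 shared (77 higher, 29 lower) and 20 opposite.

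Leaving out single libraries gave between 1370 and 2970 calls for the mean, 432 and 1599 for PC9, 740 and 2856 for HCC827, and 429 and 1862 for HCC827 minus PC9. Shared genes lay between 124 and 412 (99 and 286 higher, 23 and 126 lower), opposite genes between 20 and 132, and H1975 against the mean between 6338 and 7507. Where that left 1 library in a group, it was assumed to vary like the other groups.

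ARHGDIB turned sign between the lines with a pseudocount of 0.1 (-0.081, adjusted p = 0.833). Deviations of libraries with the same replicate number correlated at 0.026 in PC9 and 0.090 in HCC827, so the numbers were not taken to pair them. With a replicate block, 222 shared higher and 79 shared lower genes were called, and 1062 and 1971 genes in PC9 and HCC827. Of 71 named shared genes 25 kept both calls under all alternatives in which they were tested. With each line on its own 34 lost a call, without the filter 26, and under the other 7 settings with all libraries between 0 and 6. With 2 libraries per group the spread is known poorly, and genes under 1 FPKM rest on few reads.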

Other observations

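Further shared genes were picked after their values were seen, and no group is claimed for them. SPDEF, a transcription factor of goblet cells, read 1.06 and 1.10 FPKM in the PC9 controls against 3.28 and 2.67 with ZNF263, and 0.338 and 0.224 against 1.09 and 0.800 in HCC827. It rose by 0.93 ± 0.099 (SE; limma adjusted p = 0.000112) and 0.60 ± 0.099 (0.00196). COL6A1, a chain of collagen VI, rose by 0.59 in each line, and COL6A2, another chain, by 0.45 and 0.89, with the PC9 call of COL6A2 lost without PC9 control replicate 1 or PC9 ZNF263 replicate 1 (limma adjusted p up to 0.0576). The complement protease C1R went from 10.4 and 9.66 to 17.0 and 15.99 FPKM in PC9 and from 3.21 and 3.27 to 6.003 and 4.81 in HCC827. CFI, the protease that inactivates C3b and C4b, rose by 0.77 and 0.52. SPDEF, COL6A1, C1R and CFI were called in both lines in every alternative in which they were tested.

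Among the falls, DKK1, an inhibitor of Wnt signalling, went from 77.0 and 76.5 to 49.4 and 52.1 FPKM in PC9 and from 21.0 and 25.2 to 16.2 and 18.6 in HCC827. PLAUR, the urokinase receptor, fell by 0.36 and by 0.85, and ETS1, a transcription factor, by 0.24 and by 0.33. CDC25A, a phosphatase that activates CDKs, fell by 0.32 and by 0.31, and CDKN1B, the CDK inhibitor p27, rose by 0.29 and 0.26. GTPBP4, NIP7, NAT10 and UTP4, factors of ribosome assembly, fell by 0.29, 0.27, 0.26 and 0.23 in PC9 and by 0.41, 0.33, 0.28 and 0.35 in HCC827. Each of these calls was lost in at least 1 line when some single libraries were left out. DKK1 lost its HCC827 call only without HCC827 ZNF263 replicate 1 (limma adjusted p = 0.131). GTPBP4 lost its PC9 call without either PC9 control or PC9 ZNF263 replicate 1 (up to 0.168). The PC9 calls of PLAUR, ETS1, CDC25A, CDKN1B, NIP7, NAT10 and UTP4 were lost without any 1 PC9 library (up to 0.338), and that of ETS1 also without either HCC827 ZNF263 library. The HCC827 calls of ETS1, CDC25A, CDKN1B, NIP7 and NAT10 were lost without HCC827 ZNF263 replicate 1 (up to 0.217), those of CDC25A and CDKN1B without HCC827 control replicate 1 (up to 0.113), and that of CDC25A without either PC9 control (0.0504).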
